A study of Mus musculus with 18 samples.

Results

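Complement is a cascade of blood and tissue proteins that tags surfaces and can pierce membranes, and 6 of its genes were followed here: the components C3, C4b and Cfb and the regulators Serping1, Cd55 and Cd59a. They were taken by gene symbol from 57010 Ensembl genes. All 6 have a row in the deposited table. 5 of them were among the 17531 genes with enough counts for the test. Cfb was not, and is described by its raw counts. Brain endothelial cells isolated from mice at postnatal day 57 gave RNA for 18 stranded mRNA libraries. The 4 groups were flox in normoxia (21% oxygen, 4 libraries), KO in normoxia (5), flox in hypoxia (12% oxygen for 7 days, 4) and KO in hypoxia (5).

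The KO animals were Slco1c1-iCreERT2; Pdcd10 fl/fl; Aldh1l1-EGFP/Rpl10a, and the flox animals were Pdcd10 fl/fl; Aldh1l1-EGFP/Rpl10a. The Slco1c1 driver acts in brain endothelium. It removes Pdcd10, the gene of the adaptor protein CCM3, and people who lack a working copy can develop cavernous malformations of brain vessels. Every group therefore carried the floxed Pdcd10 alleles and the astrocyte reporter. The design gives 50 µg of 4-hydroxy-tamoxifen on postnatal day 1. It also counts driver animals that received no tamoxifen among the controls, and the labels do not say which libraries came from them. Nothing says that the replicates of a group are separate animals, so p-values measure the spread between these libraries, which may be technical.

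Complement can start when C1 binds a surface, when lectins bind sugars, or by slow turnover of C3. C4 and factor B each form part of an enzyme, the C3 convertase, that splits C3. Deposited C3 fragments mark the surface and feed the terminal complex, which opens pores. Endothelium faces blood complement at all times and carries membrane inhibitors. CD55 (decay-accelerating factor) takes convertases apart, CD59 blocks the terminal pore, and the C1 inhibitor encoded by Serping1 inactivates the starting proteases. Astrocytes and microglia also make complement proteins.

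Among the 6 genes, Cd55 had the firmest difference with genotype. It was about 12-fold higher in KO than in flox cells at both oxygen levels, with no overlap between libraries. Cd59a, the other membrane inhibitor, stayed within a narrow range in all 18 libraries. The components varied more. C3 did not overlap between genotypes in normoxia, and Cfb, seen in few reads, did not overlap at either oxygen level. Of all genes tested, 14.7% did not overlap between genotypes in normoxia and 22.3% in hypoxia. C4b ran from 3.56 to 36.5 CPM (reads scaled to a common library size) among hypoxia flox libraries and from 7.27 to 226 among hypoxia KO libraries. No tested member passed the threshold for hypoxia against normoxia in either genotype.

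Library totals ran from 17931197 to 31193333 counts. CPM here use the TMM-adjusted library size, and levels below are CPM unless another unit is named. Pdcd10 itself was at 30.6 to 45.0 CPM in normoxia flox and 16.3 to 20.1 in normoxia KO. In hypoxia it was at 37.7 to 60.9 CPM in flox and 18.2 to 25.3 in KO, so each KO library was below every flox library. The 8 endothelial markers summed to 11100 to 17400 CPM over all libraries. Microglia and macrophage markers summed to at most 196 CPM, and oligodendrocyte markers to 625 to 5140 CPM. Choroid plexus markers summed to 35.8 to 268 CPM in normoxia flox and 104 to 1010 in normoxia KO. In hypoxia they summed to 24.8 to 173 CPM in flox and 143 to 910 in KO, where 1 of 4 was called higher. Replicate 4 of normoxia flox and replicate 4 of normoxia KO stood apart by their neuronal markers, at 1880 and 1060 CPM, against at most 116 in the other 16. Replicates 3 and 4 of normoxia flox and replicate 4 of normoxia KO held both Xist and Y-linked counts. All 4 hypoxia flox libraries had the Y-linked pattern. In hypoxia KO, 4 of 5 had the Xist pattern, so sex and genotype nearly coincide in hypoxia. In bulk RNA, a change in the share of cells that make a transcript and a change in RNA per cell cannot be told apart.

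**Figure D1:**
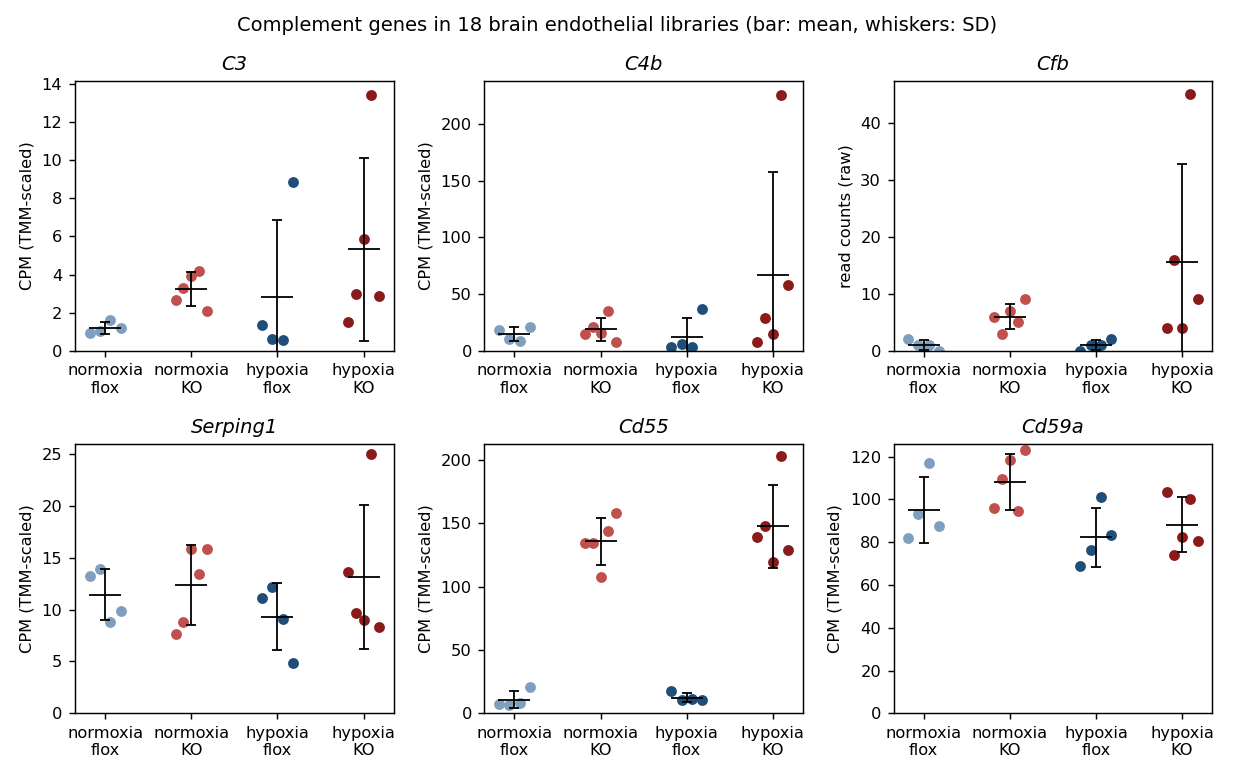
Level of each complement gene in the 18 libraries by group. The y axis is CPM, except for Cfb, where it is raw read counts. Each point is 1 library, the bar is the group mean and the whiskers are the SD, which the axis cuts at 0. Cd55 sits between 108 and 203 CPM in the KO libraries and between 6.84 and 21.2 in the flox libraries, whereas Cd59a lies between 68.9 and 123 in all.

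Cd55 was low in flox cells. In normoxia flox, replicates 1, 2, 3 and 4 held 7.57, 6.84, 7.86 and 21.2 CPM. In normoxia KO, replicates 1, 2, 4, 5 and 6 held 134, 134, 108, 144 and 158 CPM. The lowest KO library was thus far above the highest flox library, which was replicate 4. In hypoxia flox, replicates 2, 3, 4 and 5 held 17.6, 10.5, 11.2 and 10.4 CPM. In hypoxia KO, replicates 1 to 5 held 139, 148, 119, 203 and 129 CPM. The groups again did not overlap.

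The genotype difference of Cd55 in normoxia was 3.64 ± 0.32 on the log2 scale (SE, 95% interval 2.95 to 4.33), or 12.4-fold (edgeR quasi-likelihood test, adjusted p = 1.6e-06). In hypoxia it was 3.56 ± 0.32 (interval 2.88 to 4.25), or 11.8-fold (edgeR adjusted p = 2.9e-06). Cd55 was the only member that passed in either genotype comparison, 1 of 5 tested. Over all genes tested, 9.54% were called higher and 7.03% lower in normoxia KO. In hypoxia KO, 11.4% were called higher and 11% lower. The difference between both genotype effects was -0.07 ± 0.40 (interval -0.93 to 0.78), with an edgeR adjusted p of 0.995. Hypoxia against normoxia gave 0.19 ± 0.31 for Cd55 in flox and 0.12 ± 0.26 in KO. Neither passed the edgeR test (adjusted p = 0.833 and 0.877), and their intervals were -0.46 to 0.85 and -0.44 to 0.68. Every hypoxia flox library lay above replicates 1, 2 and 3 of normoxia flox and below replicate 4. In 34 alternatives the flox value ran from -0.03 to 0.78 and the KO value from -0.02 to 0.20, and none passed. The difference between both genotype effects ran from -0.71 to 0.16 in 33 alternatives, and none passed.

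The Cd55 call held in each of 34 alternatives at both oxygen levels. Its log2 difference ran from 3.17 to 4.26 in normoxia and from 3.01 to 3.78 in hypoxia. Without replicate 4 of normoxia flox it was 4.17 in normoxia. With sex signal as a covariate it was 3.65 in normoxia and 3.68 in hypoxia. With a microglia and macrophage marker score as a covariate it was 3.71 and 3.10.

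Cells other than endothelium that carry CD55 include leukocytes and red cells, so their markers are given here. Summed microglia and macrophage markers ranged over 28.3 to 184 CPM in normoxia flox, 46.7 to 130 in normoxia KO, 27.0 to 56.7 in hypoxia flox and 58.8 to 196 in hypoxia KO. The highest normoxia flox value belonged to replicate 4, the flox library with the most Cd55. That library also had the highest neuronal, astrocyte and oligodendrocyte sums of all, at 1878, 2199 and 5138 CPM. Of 11 tested microglia and macrophage markers, 1 was called higher in normoxia KO and 2 in hypoxia KO. Lymphocyte markers summed to 2.85 to 6.33 CPM in normoxia flox and 7.71 to 20.5 in normoxia KO. They summed to 2.55 to 9.14 CPM in hypoxia flox and 15.2 to 29.3 in hypoxia KO, and 4 of 4 tested were called higher in KO at both oxygen levels. Red cell markers summed to 1350 to 2710 CPM in normoxia flox, 1160 to 4990 in normoxia KO, 3520 to 4800 in hypoxia flox and 2600 to 7960 in hypoxia KO, and 0 of 4 passed either genotype comparison. No marker of these lists was at 0 in every library. Neutrophil markers summed to 110 CPM in replicate 4 of hypoxia KO, the library with the most Cd55, and to at most 7.01 in the other 17, and 3 of 3 tested were called higher in hypoxia KO. Without that library the hypoxia difference of Cd55 was 3.42 (edgeR adjusted p = 6.1e-06). The part of lymphocytes, red cells and neutrophils in the Cd55 difference was not tested.

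Cd59a encodes the inhibitor of the terminal pore. In normoxia flox, replicates 1 to 4 held 81.8, 93.3, 117 and 87.4 CPM. In normoxia KO, the 5 libraries held 95.8, 109, 118, 94.5 and 123 CPM. In hypoxia flox, replicates 2 to 5 held 68.9, 76.2, 101 and 83.4 CPM. In hypoxia KO, replicates 1 to 5 held 104, 74.2, 82.4, 100 and 80.8 CPM. The groups overlapped in all 4 comparisons. The genotype difference was 0.19 ± 0.14 in normoxia (interval -0.10 to 0.48) and 0.10 ± 0.14 in hypoxia (interval -0.19 to 0.39). Neither passed the edgeR test, with adjusted p of 0.397 and 0.658. Both passed once an immediate early gene score was a covariate, at 0.30 (adjusted p = 0.026) and 0.31 (adjusted p = 0.0345). Hypoxia against normoxia gave -0.20 ± 0.14 in flox and -0.29 ± 0.13 in KO (edgeR adjusted p = 0.52 and 0.316).

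Levels can be compared between genes on the deposited RPKM scale, which divides by gene length and library total. Cd59a led in every group, at 53.9 ± 10.5 RPKM in normoxia flox and 58.1 ± 8.44 in normoxia KO (SD, n = 4 and 5). The hypoxia means were 48.5 ± 8.52 RPKM in flox and 46.8 ± 8.21 in KO. Cd55 was at 2.28 ± 1.42 RPKM in normoxia flox and 27.1 ± 3.99 in normoxia KO. The hypoxia means of Cd55 were 2.70 ± 0.67 RPKM in flox and 28.9 ± 5.66 in KO. Per library, Cd55 was 2.49 to 9.02% of Cd59a in normoxia flox and 34.0 to 56.8% in normoxia KO. It was 4.22 to 9.46% of Cd59a in hypoxia flox and 50.0 to 75.2% in hypoxia KO. In flox cells the order below Cd59a began with Serping1, at 5.03 ± 1.07 RPKM in normoxia and 4.25 ± 1.42 in hypoxia. Cd55 and C4b overlapped there, with C4b at 2.63 ± 0.99 and 2.35 ± 3.11 RPKM. In KO cells Cd55 took the place directly below Cd59a, above Serping1 at 5.16 ± 1.75 RPKM in normoxia. In hypoxia KO the means of C4b, 10.9 ± 14.5 RPKM, and Serping1, 5.38 ± 2.69, did not differ beyond their spread. C3 and Cfb closed the order in every group, with means below 1 RPKM.

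The mouse genome holds a near copy beside Cd55, Cd55b, on the same chromosome. Of the 50-base windows of Cd55 transcripts, 8.0% also occur in Cd55b. Cd55b counts were 0 to 6 in normoxia flox, 11 to 41 in normoxia KO, 0 to 2 in hypoxia flox and 10 to 27 in hypoxia KO. It was called higher in KO by 3.41 ± 0.65 in normoxia (edgeR adjusted p = 6.03e-04) and by 4.44 ± 0.78 in hypoxia (adjusted p = 2.97e-04). Cd55b held at most 0.701% of the counts of the pair in any group. How reads that match both genes were counted is not given in the sources used here, so the Cd55b values are uncertain. Cd59b, the near copy of Cd59a, differed by 0.08 ± 0.17 in normoxia and 0.08 ± 0.18 in hypoxia, and was not called.

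The RefSeq promoter table for GRCm38.p6 held 3 of the 6 members. The 250 bases before the start site are shown for Cd55, which differed with genotype, for Cd59a, which did not pass, and for C3. Capitals mark matches, on either strand, to CACCC, a core bound by KLF transcription factors, and in Cd59a also a match to GAAANNGAA, an interferon response core. The windows are chr1:130462745-130462994 on the minus strand for Cd55, chr2:104095551-104095800 on the plus strand for Cd59a and chr17:57228137-57228386 on the minus strand for C3.
Cd55: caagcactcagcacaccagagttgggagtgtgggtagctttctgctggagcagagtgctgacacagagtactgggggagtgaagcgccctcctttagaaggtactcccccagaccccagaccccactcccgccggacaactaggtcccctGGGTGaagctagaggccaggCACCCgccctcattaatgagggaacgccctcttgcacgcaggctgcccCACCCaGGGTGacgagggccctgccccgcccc
Cd59a: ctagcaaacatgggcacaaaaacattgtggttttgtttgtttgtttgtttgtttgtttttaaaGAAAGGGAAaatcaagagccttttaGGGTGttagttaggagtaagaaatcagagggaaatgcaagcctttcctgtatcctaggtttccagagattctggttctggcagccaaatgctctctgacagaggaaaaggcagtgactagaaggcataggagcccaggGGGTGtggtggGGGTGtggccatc
C3: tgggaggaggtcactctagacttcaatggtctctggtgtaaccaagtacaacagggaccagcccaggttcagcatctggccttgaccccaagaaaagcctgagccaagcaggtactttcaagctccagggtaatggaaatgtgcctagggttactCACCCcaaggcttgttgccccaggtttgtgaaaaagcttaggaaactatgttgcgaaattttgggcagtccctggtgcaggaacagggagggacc
The Cd55 window held 4 KLF cores, the Cd59a window 3 and the C3 window 1. At least 1 such core occurred in 52.0% of the 32851 promoters in the table, at least 3 in 6.92% and at least 4 in 2.14%. None of the 3 windows held TTCNNNGAA, a STAT site found in 7.02% of promoters, or ACGTG, a hypoxia response core found in 16.6%. None held the NF-kB consensus, found in 7.25%. The interferon core was present in 7.13% of promoters. A match of letters does not show that a factor binds there.

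Serping1 encodes the C1 inhibitor, which stops C1r, C1s and the lectin pathway proteases. It was at 13.2, 13.9, 8.81 and 9.87 CPM in normoxia flox and at 7.69, 8.84, 15.8, 13.4 and 15.8 in normoxia KO. It was at 11.1, 12.1, 9.11 and 4.85 CPM in hypoxia flox and at 13.6, 9.70, 9.02, 25.0 and 8.37 in hypoxia KO. Replicate 5 of hypoxia flox was the lowest library and replicate 4 of hypoxia KO the highest, and the groups overlapped in every comparison. The genotype difference was 0.11 ± 0.34 in normoxia (interval -0.60 to 0.82) and 0.50 ± 0.34 in hypoxia (interval -0.22 to 1.22). Neither passed the edgeR test, with adjusted p of 0.857 and 0.329.

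C4b encodes mouse C4, a part of the classical and lectin C3 convertase, which C1s cleaves in the classical pathway. In normoxia flox the 4 libraries held 18.5, 10.7, 8.73 and 20.9 CPM. In normoxia KO the 5 libraries held 15.1, 20.9, 15.6, 35.1 and 7.55 CPM, and the groups overlapped widely. In hypoxia flox, replicates 2, 3 and 4 held 3.56, 5.93 and 3.57 CPM, and replicate 5 held 36.5. In hypoxia KO, replicates 1 to 5 held 7.27, 28.5, 14.4, 226 and 58.1 CPM. Thus 3 of 4 hypoxia flox libraries lay below every hypoxia KO library, and replicate 5 of hypoxia flox lay above 3 of 5.

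The genotype difference of C4b was 0.35 ± 0.89 in normoxia (edgeR adjusted p = 0.83) and 2.43 ± 0.95 in hypoxia (interval 0.42 to 4.45, edgeR adjusted p = 0.0789). Neither passed. The hypoxia value rested on a few libraries. It was 3.93 without replicate 5 of hypoxia flox (adjusted p = 0.0183), 2.72 without replicate 1 of hypoxia KO (0.0383) and 1.13 without replicate 4 of hypoxia KO (0.369). It also passed with DESeq2, at 2.44 (adjusted p = 0.0264), and with sex signal as a covariate, at 3.11 (adjusted p = 0.0361). The only hypoxia KO library with the Y-linked pattern was replicate 4, so sex and that library cannot be told apart within hypoxia KO. Hypoxia against normoxia gave 1.83 ± 0.85 in KO (edgeR adjusted p = 0.346), and 0.52 without replicate 4 of hypoxia KO. In flox it gave -0.25 ± 0.94 (edgeR adjusted p = 0.942). That value was -1.76 without replicate 5 of hypoxia flox (adjusted p = 0.425), and it turned to 0.05 without replicate 2 or 4 of hypoxia flox and to 0.30 with the microglia and macrophage covariate. The interaction was 2.08 ± 1.26 (edgeR adjusted p = 0.993), with 0.78 without replicate 4 of hypoxia KO and 3.59 without replicate 5 of hypoxia flox.

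Of the 50-base windows of C4b transcripts, 34.6% also occur in C4a, its near copy, so the C4b and C4a counts are uncertain. C4a held 5.63 to 12.2% of the counts of the pair, by group. C4a differed with genotype by 0.12 ± 0.57 in normoxia and 1.25 ± 0.55 in hypoxia (edgeR adjusted p = 0.12), and was not called.

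C3 encodes the protein at which all starting routes meet. In normoxia flox it was at 0.939, 1.03, 1.61 and 1.18 CPM, and in normoxia KO at 2.65, 3.32, 3.95, 4.21 and 2.06. These groups did not overlap, which held for 2 of the 5 tested members (C3 and Cd55) and for 14.7% of all genes tested. In hypoxia it held for 1 of the 5, Cd55, and for 22.3% of all genes. The difference was 1.43 ± 0.78 (interval -0.22 to 3.08) and did not pass in the fit of all 18 libraries (edgeR adjusted p = 0.245). Fitted on the 9 normoxia libraries alone, the same difference had an SE of 0.27 and passed (adjusted p = 0.00997). In hypoxia flox, replicates 2 to 5 held 1.34, 0.593, 0.545 and 8.87 CPM. In hypoxia KO, replicates 1 to 5 held 1.51, 2.96, 5.88, 13.4 and 2.86 CPM. As with C4b, replicate 5 was the high flox library. The hypoxia difference was 0.93 ± 0.71 (edgeR adjusted p = 0.388). It was 2.66 without replicate 5 of hypoxia flox (adjusted p = 0.0111) and 0.24 without replicate 4 of hypoxia KO (0.864). Hypoxia against normoxia gave 1.23 ± 0.82 in flox, which turned to -0.51 without replicate 5 of hypoxia flox. In KO it gave 0.73 ± 0.65, and 0.04 without replicate 4 of hypoxia KO. None of these passed.

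**Figure D2:**
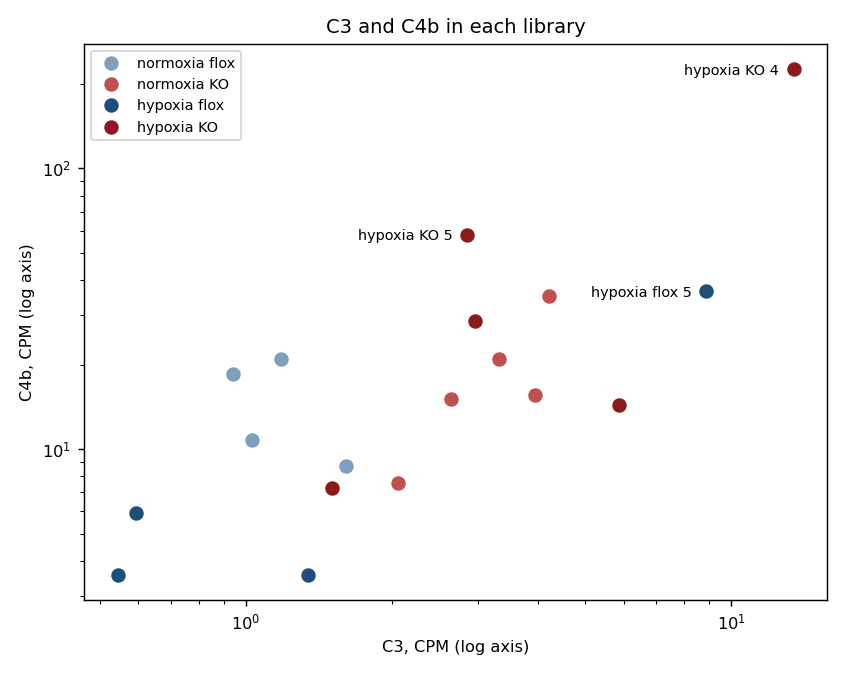
C3 and C4b in each of the 18 libraries, in CPM on log axes, coloured by group. The plot labels 3 hypoxia libraries. Replicate 5 of hypoxia flox, at 8.87 and 36.5 CPM, lies far from the other 3 hypoxia flox libraries, and replicate 4 of hypoxia KO is the highest for both genes, at 13.4 and 226 CPM.

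C3 and C4b rose and fell together across libraries. Pearson's r of their log2 CPM was 0.764 over the 18 libraries and 0.751 after each group's mean was taken out. The points share library preparation and isolation, and the value is a description. Replicate 4 of hypoxia KO, the highest for both, also had the highest summed neutrophil markers, 110 CPM, against at most 7.01 in the other 17 libraries. Neutrophil markers summed to 0.868 to 2.65 CPM in normoxia flox, 1.27 to 4.44 in normoxia KO, 0.671 to 1.78 in hypoxia flox and 2.05 to 110 in hypoxia KO, and none was at 0 in every library. Of those tested, 3 of 3 were called higher in hypoxia KO and 0 of 3 in normoxia KO. It also had the highest microglia and macrophage sum, 196 CPM. Replicate 5 of hypoxia flox had the lowest sums for fibroblast (20.5 CPM), microglia and macrophage (27.0 CPM) and lymphocyte markers (2.55 CPM), and 1.67 CPM for neutrophil markers. Oligodendrocyte markers summed to 893 to 5140 CPM in normoxia flox and 625 to 4960 in normoxia KO. In hypoxia they summed to 657 to 2390 CPM in flox and 686 to 4560 in KO, and 0 of 7 passed either genotype comparison. Replicate 4 of hypoxia KO was at 3335 CPM for these markers and replicate 5 of hypoxia flox at 1380. The parts of neutrophils and oligodendrocytes in the C3 and C4b values were not tested.

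Cfb encodes factor B, which supplies the protease of the alternative C3 convertase. Its raw counts were 2, 1, 1 and 0 in normoxia flox and 6, 3, 7, 5 and 9 in normoxia KO. They were 0, 1, 1 and 2 in hypoxia flox and 4, 16, 4, 45 and 9 in hypoxia KO. At both oxygen levels every KO library was above every flox library, with sums of 4 and 30 counts in normoxia and of 4 and 78 in hypoxia. The nearest normoxia libraries were at 2 and 3 counts. Such a lack of overlap held for 14.7% of all genes tested in normoxia and 22.3% in hypoxia. Cfb failed the filter on low counts. In the same edgeR fit with no filter, the genotype difference was 2.27 ± 0.93 in normoxia (adjusted p = 0.184) and 3.94 ± 0.77 in hypoxia (adjusted p = 0.00108). DESeq2 gave 4.06 in hypoxia (adjusted p = 7.31e-04). Leaving out each library in turn kept the hypoxia difference between 3.05, without replicate 4 of hypoxia KO, and 4.46, with adjusted p of at most 0.00808. The normoxia difference passed in 1 of these fits, without replicate 4 of hypoxia KO (adjusted p = 0.0479). Hypoxia against normoxia in KO was 1.68 ± 0.50 (adjusted p = 0.176), and 0.79 without that library.

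A read-through gene, Gm20547, covers 79.5% of the exonic bases of Cfb on the same strand, in the GENCODE M21 annotation of GRCm38. It was at 0 counts in all 18 libraries, which allows up to 3 counts per library among reads that the counting could assign to it. Whether reads in shared bases were dropped by the authors' counting is not given in the sources used here, so the Cfb level may be too low. Adding both genes' counts left Cfb below the filter.

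**Figure D3:**
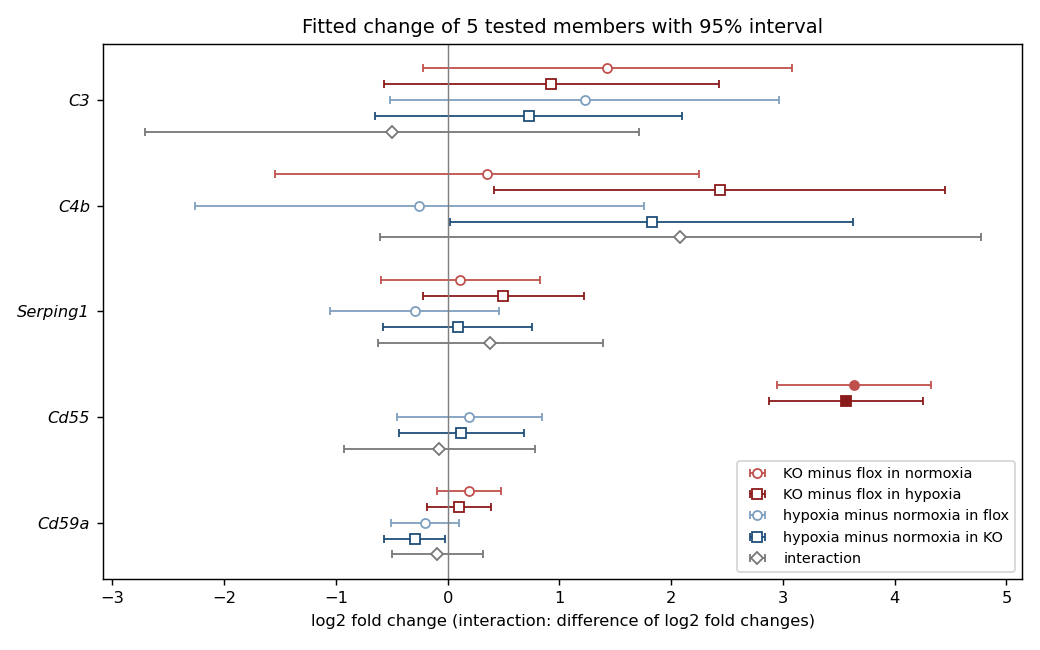
Fitted log2 fold change of the 5 tested members in each comparison, with its 95% interval. Filled symbols have an adjusted p under 0.05 and open symbols do not. The Cd55 genotype differences, 3.64 in normoxia and 3.56 in hypoxia, are the filled ones, and the intervals of C3 and C4b are wide.

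For hypoxia against normoxia, 0 of the 5 tested members passed in flox, where 2.34% of all genes were called higher and 0.462% lower. In KO 0 of 5 passed, where 0.713% of all genes were called higher and 0.77% lower. The interaction called 0 of 5 members, and 0.439% of all genes. At an unadjusted p under 0.05, edgeR had 0 members in flox, 2 in KO (C4b higher and Cd59a lower) and 0 in the interaction. Over all genes tested, 17.8% were under that value in flox, 14.2% in KO and 5.48% in the interaction. DESeq2 called 0 members in each. The median log2 difference of the 5 tested members was 0.35 in normoxia KO against flox, where it was -0.02 over all genes. In hypoxia it was 0.93, against -0.00 over all genes.

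A wider list of 54 complement genes put the 6 in context, and 34 of them were tested. In normoxia KO, 4 were called higher and 2 lower. In hypoxia KO, 10 were called higher and 3 lower. Those shares are read against the 9.54 and 7.03% of normoxia and the 11.4 and 11% of hypoxia given above. The median of the list was 0.06 in normoxia and 0.98 in hypoxia. Hypoxia against normoxia called 0 of 34 in flox (2 with DESeq2) and 1 in KO. At an unadjusted p under 0.05 there were 1 higher and 7 lower in flox, where all genes gave 7.29 and 10.5%. In KO there were 7 higher and 5 lower, where all genes gave 6.77 and 7.44%. The interaction called 0 of 34, with 1 at an unadjusted p under 0.05, a share to read against the 5.48% above, and 0 with DESeq2.

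Of the 9 membrane regulators, all tested, 3 were called higher in normoxia KO: Cd55, Cd55b and Thbd. Thbd encodes thrombomodulin, an anticoagulant receptor that also dampens complement. It was at 573 ± 59.0 CPM in normoxia flox and 1508 ± 124 in normoxia KO (SD, n = 4 and 5), a difference of 1.40 ± 0.13 (edgeR adjusted p = 1.9e-06). The hypoxia means were 408 ± 92.4 CPM in flox and 1038 ± 81.5 in KO, a difference of 1.35 ± 0.13. Thbd was the 1 gene of the list called between oxygen levels, with -0.54 ± 0.12 for hypoxia minus normoxia in KO (edgeR adjusted p = 0.0322). That call was lost with the replicate block (adjusted p = 0.193) and when 9 of the 18 libraries were left out one at a time. The difference stayed at -0.50 with the block and at -0.48 to -0.56 in those 9 fits. In flox the Thbd difference was -0.49 ± 0.13 and did not pass (edgeR adjusted p = 0.0595), though it did in 5 of 33 alternatives. The interaction of Thbd was -0.05 ± 0.18. Cd46, membrane cofactor protein, was lower by -1.12 ± 0.31 in hypoxia KO (edgeR adjusted p = 0.0168). It lost the call without replicate 4 or 5 of hypoxia flox (-0.97 and -0.87) and in the fit of the hypoxia libraries alone (-1.12, adjusted p = 0.0539). The immediate early gene, fibroblast and microglia covariates also ended the Cd46 call, at -0.65, -0.63 and -0.72 (adjusted p = 0.0721, 0.335 and 0.127). In normoxia the Cd46 difference was -0.83 ± 0.31 and did not pass (edgeR adjusted p = 0.0781), though it did in 2 of 33 alternatives. The interaction of Cd46 was -0.29 ± 0.44. Cr1l, the rodent regulator Crry, was at 163 ± 18.5 CPM in normoxia flox and 166 ± 5.72 in normoxia KO. Its genotype difference was 0.03 ± 0.08 in normoxia and -0.00 ± 0.08 in hypoxia, with intervals of -0.14 to 0.20 and -0.17 to 0.16.

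Of the soluble regulators, Vtn, vitronectin, which binds the terminal complex and is made by brain pericytes, was higher in hypoxia KO by 1.99 ± 0.55 (edgeR adjusted p = 0.0166). It lost the call without replicate 4 or 5 of hypoxia flox (1.72 and 1.68). The sex, fibroblast and microglia covariates also ended the Vtn call, at 1.94, 1.65 and 1.68 (adjusted p = 0.0533, 0.12 and 0.0881). In normoxia the Vtn difference was 1.52 ± 0.54 and did not pass (edgeR adjusted p = 0.0655), though it did in 3 of 33 alternatives. The interaction of Vtn was 0.46 ± 0.73. Summed pericyte markers were 202 to 972 CPM in hypoxia flox and 1130 to 1830 in hypoxia KO, and 5 of 8 were called higher there. The part of pericytes in the Vtn difference was not tested.

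Of the alternative pathway genes, Cfp, which encodes the convertase stabiliser properdin, was lower in KO, by -0.90 ± 0.18 in normoxia and -0.79 ± 0.17 in hypoxia (edgeR adjusted p = 0.00192 and 0.00437). Among 11 tested initiators, Colec12, a scavenger collectin of vascular cells, was higher in KO by 0.98 ± 0.17 and 1.47 ± 0.17 (edgeR adjusted p = 6.48e-04 and 2.2e-05). Colec11, a lectin that can start the pathway, was higher in hypoxia KO by 2.15 ± 0.61 (edgeR adjusted p = 0.0194), at 25 counts or fewer per library. It lost the call without replicate 3 of hypoxia flox (1.73) or replicate 5 of hypoxia KO (1.86). The sex, fibroblast and microglia covariates also ended the Colec11 call, at 2.01, 1.99 and 1.88 (adjusted p = 0.0747, 0.155 and 0.0848). In normoxia the Colec11 difference was 0.84 ± 0.55 and did not pass (edgeR adjusted p = 0.342).

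Of the 6 tested receptors, 4 were called higher in hypoxia KO and 0 in normoxia KO. They were C5ar1, the C5a receptor of myeloid cells, by 4.06 ± 1.07, and the integrin chains of the leukocyte C3 fragment receptors: Itgb2 by 3.76 ± 0.84, Itgax by 3.27 ± 0.77 and Itgam by 3.33 ± 1.13. Their edgeR adjusted p were 0.012, 0.00519, 0.00656 and 0.0438. Levels were low, at most 31.0 CPM in any library for Itgb2 and 9.45 for C5ar1. With the microglia and macrophage score as a covariate all 4 calls were lost. Itgax was then at 2.76 and Itgb2 at 2.37 (both adjusted p = 0.0551), C5ar1 at 1.81 (0.293) and Itgam at 1.16 (0.0846). The fibroblast score ended 3 of the calls, with Itgb2 at 3.91 (adjusted p = 0.0516), C5ar1 at 3.14 (0.199) and Itgam at 2.35 (0.34). The immediate early gene score ended those of C5ar1 and Itgam, both at 3.27 (adjusted p = 0.0723 and 0.0949). Smaller differences, at 0.65 for C5ar1 and 0.34 for Itgam, came from limma on log2(RPKM + 1), where neither passed. Neutrophil marker sums are given with C3 and C4b, and the part of neutrophils in these receptor differences was not tested. The Itgam call was also lost when any of 9 single libraries was left out, among them replicates 3, 4 and 5 of hypoxia flox and replicate 4 of hypoxia KO (2.66).

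**Figure D4:**
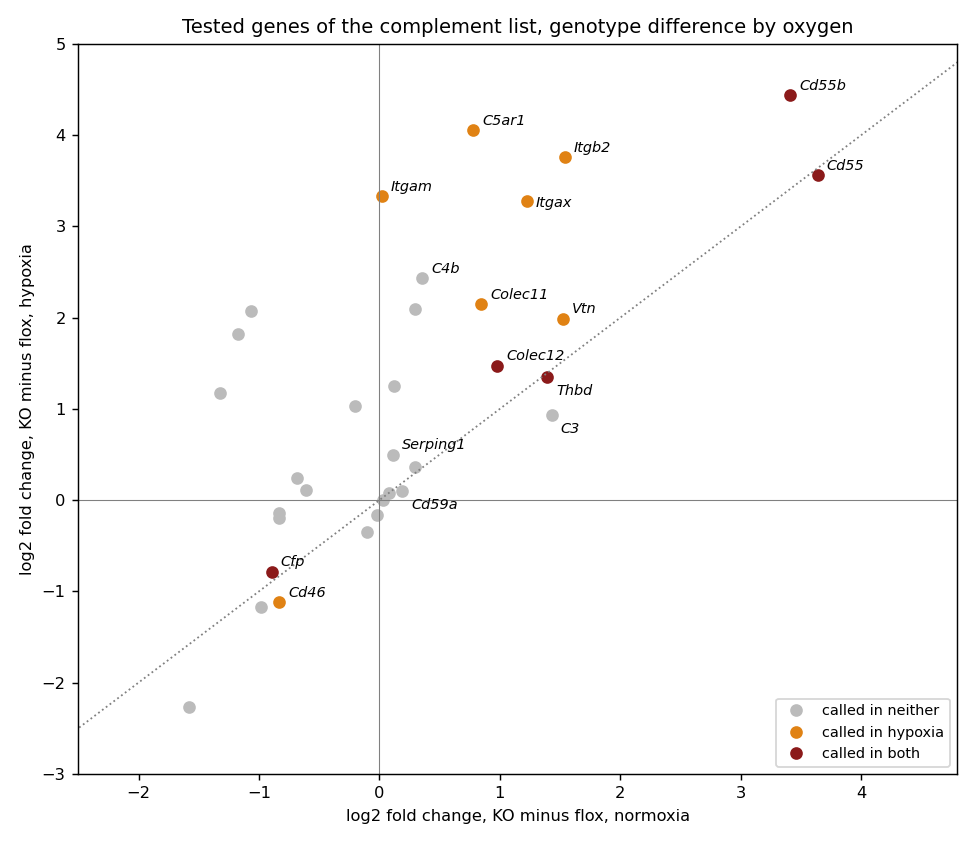
Genotype difference (log2, KO minus flox) of 33 of the 34 tested complement genes in normoxia on the x axis and hypoxia on the y axis. Colours show in which comparison a gene was called, and the dotted line marks equal differences. Cd55 and Cd55b lie at the upper right, and C5ar1, Itgam, Itgax and Itgb2 lie above 3 on the y axis.

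For each member, the genes whose log2 CPM followed it most closely over the 18 libraries were taken from 13175 genes. Cd55 was followed by Sh3bgrl2 (r = 0.994), Ramp3 (0.989) and Gm40663 (0.989). Their r within groups was 0.855, 0.874 and 0.807, after each group's mean was taken out. C4b was followed by Tmem189 (0.866), C4a (0.835) and the cytokine gene Il1b (0.816). C3 was followed by Map3k14 (0.844), Hdc (0.843) and B4galt5 (0.812). Serping1 was followed by the interferon-induced Oas2 (0.868), the protease gene C1s1 (0.833) and C1qtnf1 (0.78). Cd59a was followed by Chmp3 (0.907), Arl2bp (0.907) and Smim14 (0.904).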

How the data were processed

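Read counts per Ensembl gene and RPKM for 18 libraries were deposited by the authors. Per the submitters' processing notes, HISAT2, edgeR and GRCm39 were used. Counting rules are not given in the sources used here. For 91.3% of genes a symbol was matched, and the rest held 0.723% of counts. Counts were fitted with edgeR 4.0.16 (R 4.3.3) as 4 groups, with TMM scaling, filterByExpr and the robust quasi-likelihood test, and adjusted by Benjamini-Hochberg over all 17531 genes at 0.05. CPM used the TMM-scaled library size, and log2 CPM a prior count of 2. DESeq2 1.42.0 and limma 3.58.1 on log2(RPKM + 0.1) and log2(RPKM + 1) were alternatives. The fit was tested on simulated data. The 6 members, the wider list, markers and motifs were chosen with earlier results of these data known. Named genes are the members, their near copies, list genes past the threshold and the 3 most correlated genes per member among those with a mean log2 CPM of at least 1. Cr1l, Clu and Cd93 fall outside this rule and were chosen after their values were seen. One gene of the wider list is counted in its totals but not reported here. Replicate numbers recur between groups, and the labels state no pairing. Deviations of same-numbered normoxia flox and KO libraries gave r = 0.294 to 0.847 (3 pairs), and hypoxia pairs gave r = -0.339 to 0.158. The value of 0.847 was that of replicate 4, the libraries high in neuronal markers. Pairs with different numbers were not compared, so these values cannot show a pairing.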

Additional observations from a re-analysis of the deposited data

Results flagged for a closer look

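In each group of 4 or 5 libraries, the gap between the highest or lowest library and its neighbour was compared with the group's range. Of 24 groups checked over the 6 members, 5 had a library past Dixon's 95% value, each time the highest of its group. Chance gives about 1 in 20 for independent groups of normally distributed values. CPM were not logged here, and C3 and C4b rose and fell together, so 5 of 24 is not read as an excess. Replicate 5 of hypoxia flox stood apart for C3, at 8.87 CPM against 0.545 to 1.34 in the other 3, and for C4b, at 36.5 CPM against 3.56 to 5.93. Replicate 4 of hypoxia KO stood apart for C4b, at 226 CPM against 7.27 to 58.1 in the other 4. Replicate 4 of normoxia flox stood apart for Cd55, at 21.2 CPM against 6.84 to 7.86. Replicate 2 of hypoxia flox stood apart for Cd55, at 17.6 CPM against 10.4 to 11.2.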

How the results depend on the processing

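No value changed direction past the threshold. In normoxia KO against flox, 2 members passed in place of 1 when the 9 libraries of the comparison were fitted alone (C3 joined) or with the immediate early gene covariate (Cd59a joined). In hypoxia, 3 passed with DESeq2 (C4b and Cfb joined), and 2 with no filter (Cfb), with the sex covariate (C4b), with the immediate early gene covariate (Cd59a) and without the 3 libraries that hold both Xist and Y-linked counts (Cfb), an alternative chosen after seeing the data. Leaving out each library gave 1 to 3 members in hypoxia (3 without replicate 5 of hypoxia flox) and 1 in normoxia. For the list of 54, leaving out each library gave 6 to 10 genes in normoxia (10 without replicate 4 of normoxia KO) and 10 to 15 in hypoxia. The fibroblast covariate gave 7 in hypoxia. For hypoxia against normoxia in flox, where 0 passed, DESeq2 and the immediate early gene covariate gave 2, both limma fits, the microglia covariate and removal of both neural libraries gave 1, and leaving out each library gave 0 to 1. In KO, where 1 passed, DESeq2 gave 4, the microglia covariate 3, the sex and immediate early gene covariates 2 and the replicate block 0, and leaving out each library gave 0 to 3. With the replicate block Cd55 was 3.63 in normoxia and 3.56 in hypoxia, and the block changed no member's call. Leaving out each library for Cfb, with no filter, was also chosen after seeing the data. Adding Gm20547 counts gave no test for Cfb, which stayed below the filter. C3 held 11 to 277 counts per library, C4b 72 to 4655 and Cfb 0 to 45. The intervals of C3 and C4b were wide, so a difference that did not pass is not shown to be absent.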

Other observations

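Cd59a and the immediate early gene score moved in opposite directions between libraries of the same group (r = -0.803 after group means were taken out, 18 libraries). Serping1 followed the fibroblast marker score within groups (r = 0.605). For Cd55 and the microglia and macrophage score r within groups was 0.646, but not every group ran that way. Replicate 4 of normoxia flox was the highest of its group for both, at a score of 3.10 and 21.2 CPM. In normoxia KO, replicate 4 had the highest score, 2.42, and the lowest Cd55, 108 CPM. Replicate 6 had the lowest score there, 0.23, and the highest Cd55, 158 CPM. These are descriptions of libraries that share their isolation. Clu, which encodes the secreted inhibitor clusterin, was at 241 ± 182 CPM in normoxia flox, 122 ± 115 in normoxia KO, 88.3 ± 18.4 in hypoxia flox and 39.1 ± 16.4 in hypoxia KO (SD, n = 4, 5, 4 and 5), and was not called (edgeR adjusted p of 0.242 and 0.132 for KO against flox in normoxia and hypoxia). Each normoxia group includes a library high in astrocyte markers, and the part of astrocytes in the Clu values was not tested. Cd93, once described as a C1q receptor of endothelium, was at 919 ± 127 CPM in normoxia flox and 1307 ± 103 in hypoxia flox, a difference of 0.51 ± 0.13 (edgeR adjusted p = 0.0521).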
